A study of Mus musculus with 24 samples.

Results

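Newly transcribed RNA of mouse T helper 1 (Th1) effector cells was compared between 4 h after restimulation and rest (0 h). Th1 cells are CD4+ T cells that secrete interferon gamma. The comparison used 4 of the 24 libraries of the series, namely replicates 1 and 2 at 0 h and replicates 1 and 2 at 4 h, and each 4 h library was set against the 0 h library of the same replicate number. Of 9420 genes in the table, 9272 had a mean of at least 1 FPKM over these 4 libraries and were tested. FPKM counts fragments per kilobase of gene, scaled to the mapped fragments of a library, so it compares genes per unit of length within a library. It is a share of the library, and RNA per cell was not measured.

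All groups were Th1 effector cells of the DO11.10 strain, a mouse line with a transgenic T cell receptor, and the labels name no gene deletion in any group. Peripheral CD4+ cells were taken with magnetic CD4 beads. Restimulation was with plate-bound antibody against hamster immunoglobulin, antibody against CD3 at 1 µg/ml and antibody against CD28 at 2.5 µg/ml, which engage the T cell receptor complex and a costimulatory receptor. The protocol text is the same for all libraries, and the time point tells the 0 h cells from the 4 h cells. RNA was labelled for 1 h with the uridine analogue 4-thiouridine (4sU) at 200 µM, and labelled RNA was separated from unlabelled RNA before ribosomal RNA was removed and stranded libraries were built from 400 ng with 11 PCR cycles. Whether a replicate number stands for its own animal or its own culture is not in the labels. The p-values thus cover the spread among replicate libraries of new RNA at 0, 1 and 4 h alone, which may be technical. Neither age nor sex is among the labels used here.

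The FPKM of the genes in the table summed to between 237306 and 271891 per library, and the depth in reads is unknown. Replicates correlated across genes at r = 0.958 at 0 h and 0.943 at 4 h, and 287 and 552 genes differed between replicates by 2-fold or more. The labelled cell type was checked against its markers. Cd3e, a chain of the T cell receptor complex, had 38.6 and 45.3 FPKM at 0 h and 32.8 and 40.5 FPKM at 4 h, Cd4 had 77.9 and 82.9 FPKM at 0 h and 45.2 and 51.1 FPKM at 4 h, and Tbx21, the Th1 transcription factor, had 140.0 and 146 FPKM at 0 h and 162 and 117 FPKM at 4 h. Markers of other cells were also present. The 7 CD8 T cell markers, all in the table, summed to 178 and 63.9 FPKM at 0 h and to 178 and 40.3 FPKM at 4 h. Of these 4 fell and 1 rose at an adjusted p below 0.05 (limma), with a median log2 change of -0.51, and 2 fell without the pairing, without 0 h replicate 1 and without 4 h replicate 1. The 1 that rose was Cd8a, with 17.1 and 5.21 FPKM at 0 h and 25.02 and 11.3 FPKM at 4 h, and it was not called without the pairing or 0 h replicate 2. Of 10 B cell markers 5 were in the table and 2 passed the filter on low values, and the 5 had sums of 19.2 and 4.43 FPKM at 0 h and 1.89 and 2.19 FPKM at 4 h. Of 13 macrophage and monocyte markers 5 were in the table and 4 passed, and the 5 had sums of 30.7 and 21.2 FPKM at 0 h and 16.8 and 15.3 FPKM at 4 h. Of 11 dendritic cell markers 5 were in the table and passed. Their sums were 34.3 and 12.4 FPKM at 0 h and 64.7 and 17.9 FPKM at 4 h. These sums include Batf3, also made by T cells, which had 1.79 and 0.37 FPKM at 0 h and 52.6 and 5.47 FPKM at 4 h. Batf3 was the 1 marker called higher, and 3 of the 5 were called lower, with a median log2 change of -0.68. The falls were lost without the pairing. Only Fcer1g among 8 NK cell markers passed, at 0.92 and 1.74 FPKM at 0 h and 0.69 and 0.69 FPKM at 4 h. In RNA from a mixed population, fewer cells of a type and less RNA per cell cannot be told apart.

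Effector T cells without a stimulus circulate and hold back their cytokine genes. Signals through the T cell receptor activate the NFAT, AP-1 and NF-kB factors within minutes, which switch on early response genes and then cytokines, and the same signals raise Myc, a factor that drives ribosome building and nutrient use. Because 4sU enters only RNA made during the labelling hour, its RNA follows transcription more closely than the total pool does, in which long-lived mRNAs dilute a change.

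In new RNA most genes tested were called changed at 4 h, in both directions, with replicates paired and both 0 h libraries kept. With limma and Benjamini-Hochberg adjustment over 9272 genes, 2156 genes (23.3%) were called higher at 4 h and 3292 (35.5%) lower, at an adjusted p below 0.05. A change of at least 2-fold was called higher for 997 genes (10.8%) and lower for 1256 (13.5%), and 227 genes rose and 153 fell by over 4-fold. All changes below are differences in log2(FPKM + 1), 4 h minus 0 h, and a value in parentheses after a gene is this difference. The median over all genes was -0.16, with medians of -0.19 and -0.12 in the pairs of replicates 1 and 2. Of the 5448 calls, all had both pairs in the direction of the call, which is no separate check, since the same pairs gave the calls. Of these calls, 312 had 4 h and 0 h libraries that overlapped, and overlap over all genes was not counted. Scaling the libraries by the median of ratios raised the median by 0.15 and gave 2645 genes higher and 2627 lower, with no called gene changing sign. Without the pairing 3099 genes were called. Leaving out a 0 h library lowered the count of calls, to 3306 without replicate 1, and to 3764 without replicate 2. Where such checks are given below, each changed one thing at a time.

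**Figure D1:**
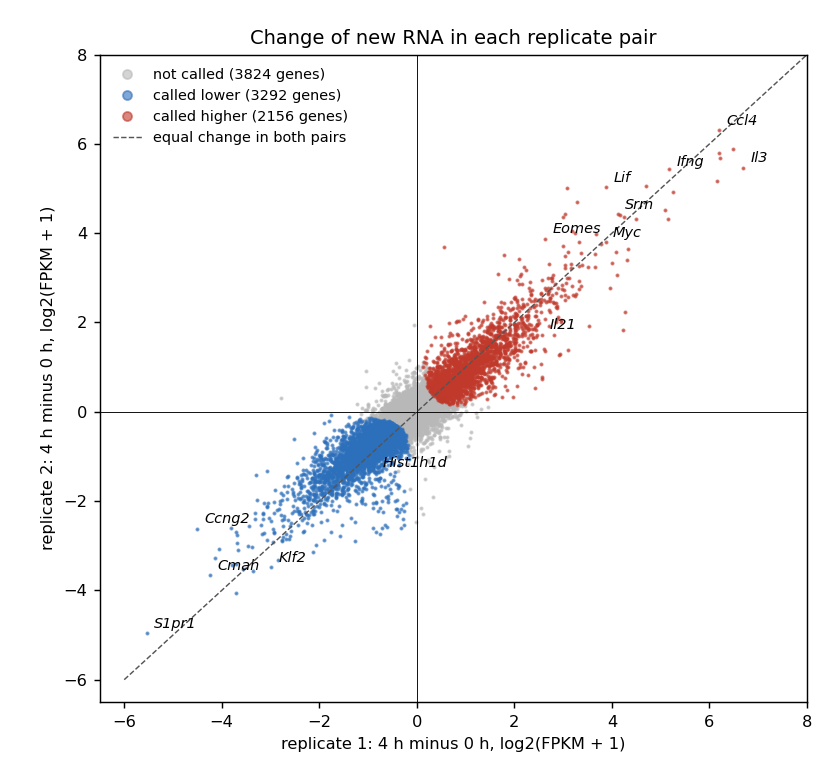
Change in new RNA from 0 h to 4 h in the pair of replicate 1 (x axis) and of replicate 2 (y axis), in log2(FPKM + 1), with 1 point per gene coloured by call. The 2156 genes called higher lie in the upper right and the 3292 called lower in the lower left, and the 3824 genes not called fill the middle.

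The largest rises were mostly of secreted factors, and the largest falls included genes of the resting state. S1pr1, the receptor that draws T cells out of lymphoid tissue along sphingosine-1-phosphate (ENSMUSG00000045092, GRCm38 chromosome 3, 115710433 to 115715072), had 185 and 258 FPKM at 0 h and 3.02 and 7.35 FPKM at 4 h. It fell by 5.24 ± 0.17 SE (adjusted p = 8.40e-06), which was 42.7-fold in mean FPKM and the deepest fall of any gene tested. Ccl4, a chemokine that attracts other immune cells (ENSMUSG00000018930, GRCm38 chromosome 11, 83662584 to 83664683), had 23.3 and 3.07 FPKM at 0 h and 1776 and 321 FPKM at 4 h. It rose by 6.25 ± 0.23 SE (adjusted p = 1.40e-05), or 79.4-fold in mean FPKM, with replicate 1 the higher at both times. Ifng, which encodes interferon gamma (ENSMUSG00000055170, GRCm38 chromosome 10, 118441046 to 118445892), went from 101 and 45.4 FPKM to 7580.3 and 2368 FPKM, a rise of 5.94 ± 0.48 SE (adjusted p = 7.07e-05), and at 4 h it was the gene with the highest FPKM in both libraries, with 2.79% and 1.0% of the summed FPKM. At rest that place was held by the histone gene Hist1h1d, with 1.46% and 1.01%. The other genes among the 12 largest rises and the 12 largest falls, taken from genes whose times did not overlap, are described below with the groups they belong to, except the following. Cmah, an enzyme that modifies sialic acid, fell by 3.95 ± 0.18 SE, from 29.1 and 47.3 FPKM to 0.6 and 2.83 FPKM. Nod1, an intracellular sensor of bacterial cell walls, fell from 34.5 and 35.1 FPKM to 1.57 and 2.35 FPKM. Nacc2, a transcriptional repressor, had 11.8 and 13.7 FPKM at 0 h and 0.25 and 0.25 FPKM at 4 h. Arhgef18, a guanine nucleotide exchange factor, fell by 3.55 and Ripor2 by 3.23. Selenop, a secreted selenium carrier, fell from 65.4 and 56.1 FPKM to 4.18 and 6.4 FPKM. Hbegf, a growth factor of the EGF family, rose from 1.07 and 0.44 FPKM to 77.97 and 42.9 FPKM.

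**Figure D2:**
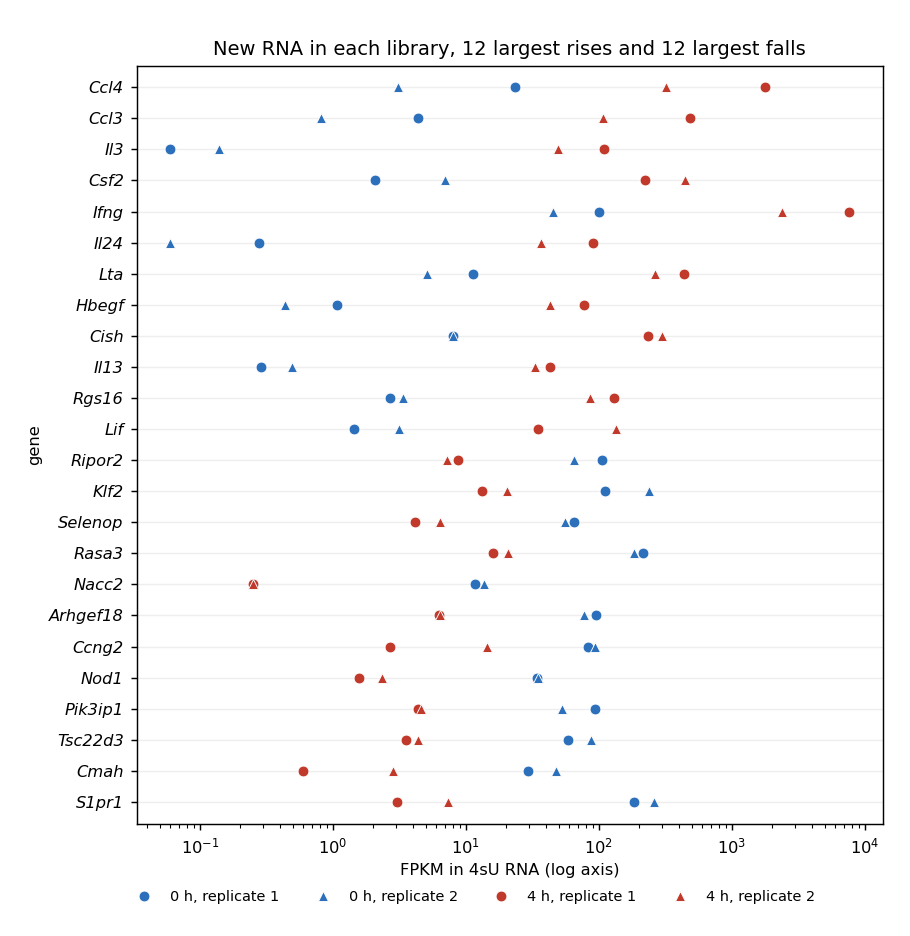
FPKM of new RNA (log axis) in each of the 4 libraries for the 12 genes with the largest rise and the 12 with the largest fall, with circles for replicate 1, triangles for replicate 2, blue for 0 h and red for 4 h. The genes were chosen from those whose times do not overlap, and replicate 1 lies above replicate 2 for Ccl3, Ccl4 and Ifng at both times.

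Genes for secreted factors rose as a group. Of 19 effector cytokines tested, 17 rose and 1 fell, with a median change of 2.89 beside -0.16 over all genes, and Csf1 was not called. Il3, a growth factor for mast cells and blood progenitors, went from 0.06 and 0.14 FPKM to 109 and 49.5 FPKM (6.08 ± 0.33 SE, adjusted p = 2.06e-05), from levels near the lowest that the table resolves. Csf2, which encodes GM-CSF, a growth factor for myeloid cells, had 2.09 and 7.02 FPKM at 0 h and 224 and 447 FPKM at 4 h, a rise of 5.99 ± 0.25 SE, and here replicate 2 was the higher at both times. Il24, a cytokine of the interleukin-10 family, rose from 0.28 and 0.06 FPKM to 90.3 and 37.04 FPKM. Lif, which acts on stem cells and in inflammation, went from 1.43 and 3.14 FPKM to 34.9 and 135 FPKM, and Osm, its relative, rose by 2.89. Il2, the T cell growth factor, had 0.24 and 0.18 FPKM at 0 h and 14.8 and 17.7 FPKM at 4 h and a rise of 3.83 ± 0.16 SE, so that its new RNA remained far below that of Ifng. Il10, an anti-inflammatory cytokine, rose by 3.83. Cytokines of other helper types rose as well. Of 7 markers of Th2 cells, 5 rose and 1 fell: Il13, an allergy cytokine, had 0.29 and 0.49 FPKM at 0 h and 42.7 and 32.9 FPKM at 4 h (4.80), and Il4, the defining Th2 cytokine, had 0.48 and 0.25 FPKM at 0 h and 16.1 and 3.73 FPKM at 4 h (2.73), while Gata3, the Th2 transcription factor, fell by 0.80. The 7 Th2 markers listed summed to 43.4 and 70.95 FPKM at 0 h and to 121 and 157 FPKM at 4 h, and the part of such cells in these rises was not tested. The Th17 cytokines Il22 and Il17a were listed at 0 and 0 FPKM and 0.12 and 0.08 FPKM at 0 h and reached only 2.33 and 2.7 FPKM and 3.62 and 1.43 FPKM at 4 h. Il16, a factor that attracts CD4+ cells, was the one cytokine to fall, from 136 and 131 FPKM to 51.9 and 54.7 FPKM (-1.31 ± 0.15 SE, adjusted p = 0.000236). Il10 and Gata3 were not called without the pairing.

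Of 12 ligands of the TNF family 9 rose, with a median change of 1.45, or 5 without the pairing. Lta, which encodes lymphotoxin alpha, had 11.3 and 5.14 FPKM at 0 h and 439.8 and 264 FPKM at 4 h, a rise of 5.30 ± 0.20 SE (adjusted p = 1.40e-05). Tnf went from 89.6 and 43.6 FPKM to 754 and 329.7 FPKM (2.97 ± 0.29 SE), after 2804 and 757 FPKM at 1 h, so that at 4 h both libraries were below both 1 h libraries. Tnfsf11 (RANKL, which acts on osteoclasts and dendritic cells) rose from 1.42 and 2.62 FPKM to 47.97 and 44.2 FPKM, and Tnfsf14 (LIGHT) from 0.62 and 1.02 FPKM to 24.97 and 19.4 FPKM. Cd40lg, the ligand through which T cells help B cells, was not called (0.24), nor were Ltb and Tnfsf4.

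Of 7 chemokines, 6 rose, with a median of 3.03, and Cxcl10 was not called. Ccl3, a chemokine closely related to Ccl4, had 4.4 and 0.82 FPKM at 0 h and 481 and 107 FPKM at 4 h and rose by 6.19 ± 0.25 SE (adjusted p = 1.52e-05). Xcl1, which attracts dendritic cells, had 0.27 and 0.27 FPKM at 0 h and 9.14 and 15.6 FPKM at 4 h (3.35). The summed FPKM of the 8 chemokines in the table, 1 of them below the filter on low values, was 35.8 and 8.51 at 0 h and 2303 and 453 at 4 h, higher in replicate 1 at both times, as were the CD8 T cell markers. The part of CD8 T cells in these values was not tested.

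Several of these genes are neighbours. Of 6641 adjacent pairs of tested genes within 100000 bases of each other, 13 pairs were both called higher by over 4-fold and 7 both lower. On chromosome 11 lie Ccl3 (83647844 to 83649355) and Ccl4 (83662584 to 83664683), with 13228 bases between them, Csf2 (54247271 to 54249667) and Il3 (54265303 to 54267277), with 15635 between, and Il4 (53602982 to 53618669) and Il13 (53631324 to 53634702), with 12654 between. Tnf (35199381 to 35202007) and Lta (35203165 to 35205351) lie 1157 bases apart on chromosome 17. Further such pairs were Il2 and Il21, Osm and Lif, Gzmb and Gzmc, and Batf3 and Atf3. Among the pairs that fell were S1pr4 and Gna15, and Ifi203 and Ifi202b, which belong to a family of similar genes and may share reads.

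Surface receptors changed in both directions, as did all genes, of which 23.3% rose and 35.5% fell. Costimulatory receptors rose in a larger share than all genes and fell in a smaller one. Inhibitory receptors and ligands did so too, with 53.8% higher and 30.8% lower. Chemokine receptors went the other way, with 18.2% higher and 45.5% lower. Of 18 costimulatory receptors, 9 rose and 5 fell (5 rose without the pairing). Tnfrsf9 (4-1BB), an activation-induced receptor, had 8.93 and 13.7 FPKM at 0 h and 177 and 309.8 FPKM at 4 h and rose by 4.28 ± 0.23 SE (adjusted p = 2.06e-05). Tnfrsf4 (OX40) rose from 140.1 and 200.3 FPKM to 1046 and 883 FPKM, and Tnfrsf8 (CD30) from 5.36 and 1.5 FPKM to 48.1 and 9.36 FPKM, with replicate 1 the higher at both times. Cd28, the receptor engaged by the stimulus, fell from 319 and 294 FPKM to 103 and 126 FPKM (-1.42 ± 0.19 SE, adjusted p = 0.000555), and Slamf6, a receptor of less differentiated T cells, fell by 2.09, from 15.5 and 13.6 FPKM to 2.14 and 3.22 FPKM. Tnfrsf8 was not called without the pairing.

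Of 13 inhibitory receptors and ligands, 7 rose and 4 fell, or 4 and 2 without the pairing, and 2 fell without 0 h replicate 2. Havcr2 (TIM-3), an inhibitory receptor of Th1 cells, had 3.22 and 1.83 FPKM at 0 h and 51.8 and 31.9 FPKM at 4 h, a rise of 3.59 ± 0.14 SE (adjusted p = 1.40e-05). Pdcd1lg2 (PD-L2) rose by 2.32, whereas Ctla4 was not called (-0.67). Lair1, an inhibitory receptor for collagen, fell from 15.6 and 8.59 FPKM to 4.35 and 1.06 FPKM. Lair1 was not called without the pairing.

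Cytokine receptors went both ways. Of 23 tested 10 fell (43.5%) and 6 rose (26.1%), beside 35.5% and 23.3% of all genes, or 6 and 2 without the pairing. Il2ra (CD25), which completes the high-affinity interleukin-2 receptor, had 70.9 and 63.96 FPKM at 0 h and 358 and 487 FPKM at 4 h and rose by 2.61 ± 0.23 SE (adjusted p = 0.000102). Its partner chains Il2rb and Il2rg were not called (0.19 and -0.20). Il7r, the receptor for the survival cytokine interleukin-7, fell by 1.77 ± 0.18 SE, from 277 and 162 FPKM to 68.4 and 55.2 FPKM. The chains of the interleukin-18 receptor fell too, Il18r1 by 1.42 and Il18rap by 1.80, while Il12rb1, of the interleukin-12 receptor, rose by 0.80. Il12rb1 was not called without the pairing.

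Among 11 chemokine receptors, 2 rose and 5 fell, or 1 and 2 without the pairing, 1 rose without 0 h replicate 2 and 3 fell without 0 h replicate 1. Cxcr3, the receptor that brings Th1 cells to inflamed tissue, had 59.7 and 38.5 FPKM at 0 h and 3.3 and 5.49 FPKM at 4 h and fell by 3.21 ± 0.27 SE (adjusted p = 8.08e-05). Cxcr4, a receptor for homing to bone marrow, fell by 1.66. Ccr8 rose from 3.4 and 6.22 FPKM to 17.4 and 25.4 FPKM. Of 10 genes of Th1 and CD4 identity, 3 rose and 4 fell (2 fell without 0 h replicate 1). Their median was -0.12, and 0.04 after median-of-ratios scaling. Ifng and Havcr2 rose, Cxcr3 and Il18r1 fell, and Tbx21 was not called (-0.05 ± 0.23 SE).

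Genes of cell killing rose in part. Of 11 granule genes, 6 rose and 3 fell, or 2 and 1 without the pairing, with 1 falling without 0 h replicate 1 or 4 h replicate 1, and 7 and 2 under median-of-ratios scaling. Gzmb, a granzyme, had 364 and 133 FPKM at 0 h and 3335 and 2236 FPKM at 4 h, a rise of 3.62 ± 0.36 SE (adjusted p = 0.00015), with both 4 h libraries above both 0 h libraries. Prf1, which encodes perforin, went from 12.4 and 2.22 FPKM to 92.03 and 26.1 FPKM, and Gzmc from 9.6 and 1.33 FPKM to 68.5 and 22.2 FPKM. In all of these replicate 1 was the higher at both times, like Cd8a at 17.1 and 5.21 FPKM at 0 h and 25.02 and 11.3 FPKM at 4 h, while 4 of the 7 CD8 T cell markers fell, and the part of CD8 T cells was not tested. Ctsw, a protease of cytotoxic cells, fell by 1.49. Prf1 and Gzmc were not called without the pairing. Cd8a was not called without the pairing or 0 h replicate 2. Cd8a had a change of 0.49 without 4 h replicate 2.

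Early response factors were still above rest at 4 h. Of 18 immediate early factors tested 16 rose, with a median of 1.78, and Jun (-0.11) and Klf6 (0.14) were not called. Atf3, a stress-induced factor, had 0.68 and 2.08 FPKM at 0 h and 30.8 and 62.2 FPKM at 4 h and rose by 4.30 ± 0.13 SE (adjusted p = 8.40e-06). Nr4a3, an orphan nuclear receptor induced by receptor signals, had 0.98 and 1.07 FPKM at 0 h and 18.4 and 52.6 FPKM at 4 h (3.99), and Nr4a1, its relative, had 12.02 and 31.9 FPKM at 0 h and 119 and 202 FPKM at 4 h (2.91). Both had been higher at 1 h, where Nr4a3 stood at 73.4 and 56.4 FPKM and Nr4a1 at 1267 and 1023 FPKM. Egr2, a zinc finger factor that limits T cell responses, had 2.25 and 2.34 FPKM at 0 h and 31.6 and 45.8 FPKM at 4 h (3.57) and 285 and 158 FPKM at 1 h. Fos, a part of AP-1, had 2.93 and 6.86 FPKM at 0 h and 9.71 and 32.4 FPKM at 4 h (1.77 ± 0.32 SE), far below its 297 and 308 FPKM at 1 h, and its 4 libraries spread widely. Egr1 went from 1.86 and 3.43 FPKM to 10.5 and 25.4 FPKM. Fos was not called without the pairing.

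Factors that direct effector function changed in both directions. Of 21 such factors, 11 rose and 4 fell, with 7 rising without the pairing. Eomes, a T-box factor of effector and memory cells, had 1.5 and 1.59 FPKM at 0 h and 14.4 and 37.1 FPKM at 4 h and rose by 3.25 ± 0.31 SE (adjusted p = 0.000124). It was not yet above rest at 1 h (1.2 and 1.13 FPKM) and had 4.05 FPKM at 2 h and 15.5 FPKM at 3 h, each in 1 library. Its relative Tbx21, which defines Th1 cells, had 140.0 and 146 FPKM at 0 h and 162 and 117 FPKM at 4 h, with libraries of the times interleaved. Irf4, which scales with the strength of the receptor signal, had 127 and 234 FPKM at 0 h and 570.1 and 867 FPKM at 4 h (2.02), and Irf8 had 18.8 and 13.4 FPKM at 0 h and 128 and 93.5 FPKM at 4 h (2.71). Batf3, a partner of IRF factors, had 1.79 and 0.37 FPKM at 0 h and 52.6 and 5.47 FPKM at 4 h, with 4 h replicate 2 well below 4 h replicate 1. Stat5a, which carries the interleukin-2 signal, rose by 2.64, while its twin Stat5b was not called. Runx1 fell by 1.31.

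Of 14 NF-kB subunits and inhibitors 13 rose, with a median of 1.34, or 8 without the pairing and 8 without 0 h replicate 1. Bcl3, a nuclear partner of NF-kB, had 10.8 and 8.97 FPKM at 0 h and 58.5 and 54.96 FPKM at 4 h (2.41 ± 0.14 SE, adjusted p = 2.37e-05). The subunits Nfkb2 (1.82), Nfkb1 (1.63) and Relb (1.64) and the inhibitors Nfkbid (1.66) and Nfkbia (1.49) all rose. Rela, the main transactivating subunit, rose by 0.65. Rela was not called without the pairing, 0 h replicate 1 or 0 h replicate 2.

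Myc rose, and its antagonists Mxd3 and Mxd4 were the only members of its network called lower (16.7%, beside 35.5% of all genes). Mxd1, Mxi1, Mnt and Mga, also in the list, were not called lower. Myc, the transcription factor of growth, had 27.9 and 27.5 FPKM at 0 h and 421 and 396 FPKM at 4 h and rose by 3.84 ± 0.19 SE (adjusted p = 1.85e-05). Max, with which it binds DNA, was not called (-0.26). Mxd3 and Mxd4 went from 59.96 and 40.2 FPKM to 12.1 and 7.32 FPKM and from 14.5 and 17.1 FPKM to 1.83 and 3.05 FPKM. Of 12 genes of the network 3 rose and 2 fell, or 1 rose without the pairing and 4 fell without 4 h replicate 2.

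Genes that restrain receptor signals rose more often than they fell. Of 22 feedback inhibitors 12 rose and 2 fell, with 1 falling without 0 h replicate 2 and 4 without 4 h replicate 1. Cish, an inhibitor of cytokine and T cell receptor signals, had 8.03 and 8.04 FPKM at 0 h and 234 and 300.3 FPKM at 4 h and rose by 4.88 ± 0.26 SE (adjusted p = 2.05e-05). Rgs16, which switches off G protein signals, had 2.68 and 3.35 FPKM at 0 h and 130.4 and 86.2 FPKM at 4 h (4.74), and Rgs1, of the same family, had 59.03 and 38.9 FPKM at 0 h and 409 and 304 FPKM at 4 h (2.85). Socs1, an inhibitor of cytokine signals, rose by 2.62. Dgka, which removes the diacylglycerol made by receptor signals, fell from 238 and 252 FPKM to 42.3 and 89.4 FPKM (-1.97 ± 0.24 SE).

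The machinery of the T cell receptor itself fell in a share near that of all genes. Of 30 genes 4 rose (13.3%) and 10 fell (33.3%), beside 23.3% and 35.5% of all genes. Their median was -0.11, beside -0.16 over all genes. Under median-of-ratios scaling 8 rose and the median was 0.06. Without the pairing 2 rose, without 0 h replicate 1 the counts were 2 and 4, and without 4 h replicate 1 there were 8 that rose. Lcp2 (SLP-76), an adaptor, rose from 98.3 and 64.05 FPKM to 211 and 183 FPKM (1.30). Stim1, the calcium sensor of the endoplasmic reticulum, fell from 67.3 and 50.1 FPKM to 15.01 and 16.2 FPKM (-1.83 ± 0.16 SE, adjusted p = 0.000102), whereas Orai1, the channel it opens, rose by 1.02. The receptor chains Cd3g and Cd3d fell by 1.13 and 0.91, while Cd3e was not called (-0.19), and the coreceptor Cd4 fell by 0.73. Orai1 was not called without the pairing. Cd3d and Cd4 were not called without 0 h replicate 1.

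**Figure D3:**
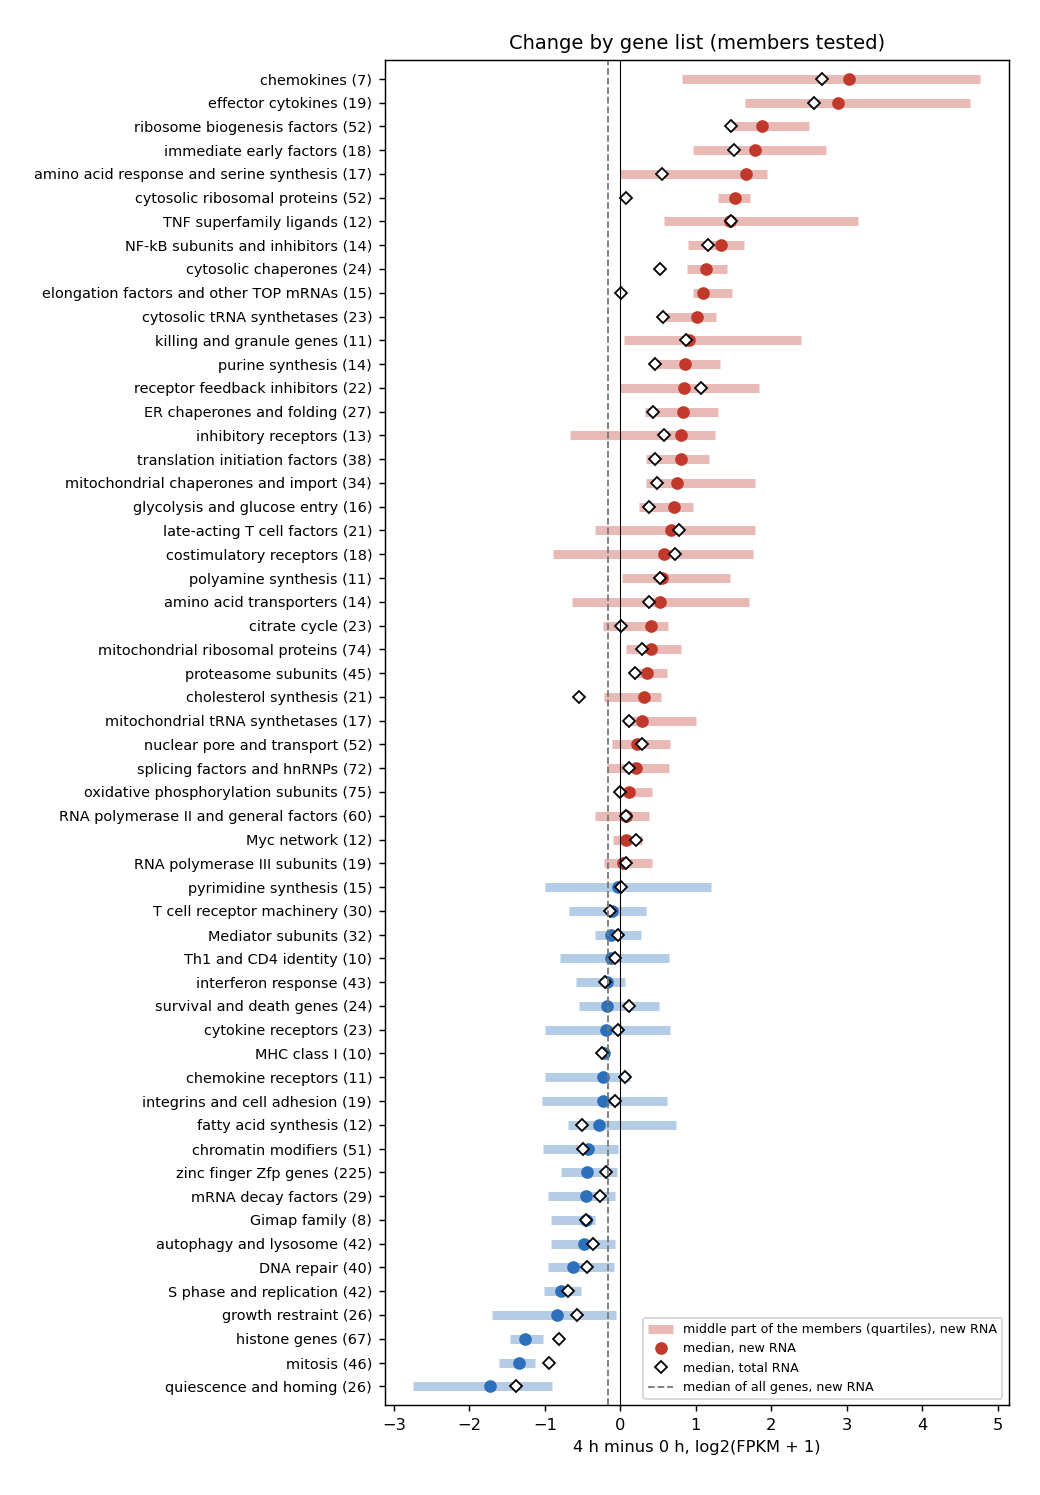
Change in new RNA from 0 h to 4 h, in log2(FPKM + 1), for all gene lists except the marker lists of other cell types. A bar runs from the lower to the upper quartile of the members, with a mark at their median. A diamond stands at the median change of total RNA. The dashed line is the median over all genes (-0.16). Chemokines (3.03) and effector cytokines (2.89) have the highest medians, and quiescence and homing (-1.73) the lowest of the lists shown.

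Genes that build ribosomes rose as a group. All 52 ribosome biogenesis genes tested rose, 49 of them by at least 2-fold, with a median of 1.88. Polr1b, a core subunit of RNA polymerase I, which transcribes ribosomal RNA, had 3.43 and 2.15 FPKM at 0 h and 44.6 and 36.1 FPKM at 4 h and rose by 3.46 ± 0.14 SE (adjusted p = 1.52e-05). Ppan, which processes the RNA of the large subunit, had 20.5 and 14.2 FPKM at 0 h and 224 and 148 FPKM at 4 h (3.34), and Nop16, a nucleolar protein, had 5.97 and 3.39 FPKM at 0 h and 68.4 and 41.1 FPKM at 4 h (3.29). Npm1, the nucleolar chaperone nucleophosmin, had 27.9 and 35.4 FPKM at 0 h and 156 and 173 FPKM at 4 h (2.35 ± 0.16 SE, adjusted p = 4.16e-05). In each of these the 4 h libraries lay above both 0 h libraries. The E-box CACGTG is the sequence that Myc and Max bind. It occurred on either strand, as a palindrome, in 11 of the 46 ribosome biogenesis genes with a promoter sequence (23.9%) and in 810 of the 7444 tested genes with one (10.9%), in a window of 250 bases before to 50 after the start of the gene. The share was 14% in genes called higher and 9.6% in genes called lower. Shown are the 250 bases before the start in Nop2, a methyltransferase of ribosomal RNA that rose by 3.13, and Utp18, a part of the small subunit processome that rose by 1.72. They are the members with the largest change among those with a match before the start. Sequences are from RefSeq on GRCm38.p6, read 5′ to 3′ on the strand of the gene, and capitals mark the E-box.
Nop2, chr6:125131633-125131882 (+ strand): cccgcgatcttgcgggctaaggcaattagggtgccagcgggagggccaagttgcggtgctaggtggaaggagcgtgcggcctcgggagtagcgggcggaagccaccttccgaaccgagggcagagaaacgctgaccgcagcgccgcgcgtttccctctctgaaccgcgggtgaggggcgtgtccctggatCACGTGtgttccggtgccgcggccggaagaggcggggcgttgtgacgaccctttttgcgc
Utp18, chr11:93885767-93886016 (- strand): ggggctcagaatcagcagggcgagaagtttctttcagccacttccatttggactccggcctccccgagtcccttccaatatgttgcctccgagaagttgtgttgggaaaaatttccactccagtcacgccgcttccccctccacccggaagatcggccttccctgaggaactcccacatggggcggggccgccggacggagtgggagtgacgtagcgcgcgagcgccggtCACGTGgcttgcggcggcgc

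Of 52 genes for proteins of the cytosolic ribosome, 51 rose (48 by at least 2-fold), with a median of 1.51, and Rps27l (0.40) was not called. Their summed FPKM was 3431 and 2840 at 0 h and 12090.2 and 7246 at 4 h. Rpl12, of the large subunit, had 23.3 and 17.2 FPKM at 0 h and 139 and 99.5 FPKM at 4 h (2.50 ± 0.14 SE, adjusted p = 2.06e-05), and Rplp1, of its acidic stalk, had 71.5 and 77.1 FPKM at 0 h and 447 and 200.4 FPKM at 4 h (2.00 ± 0.30 SE). Replicate 1 was the higher at 4 h in both. Many ribosomal protein genes have near-identical pseudogenes, and how reads that match several places were counted is not given in the sources used here, so single values are uncertain. Elongation factors and other mRNAs with the same 5′ terminal sequence rose as well, 14 of 15, with a median of 1.09. Among them Eef1b2, an exchange factor of elongation factor 1, rose by 2.08, Eef1g, of the same complex, by 1.98 and Rack1, of the small subunit, by 1.61, and Vim (0.27) was not called.

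The remaining machinery of translation rose in most of its members. Of 38 initiation factors 27 rose and 1 fell, with a median of 0.81. Eif5a, a factor modified with a polyamine, had 50.8 and 35.7 FPKM at 0 h and 253 and 211 FPKM at 4 h (2.41 ± 0.16 SE, adjusted p = 3.97e-05). Eif3g rose by 2.20, and it lies next to Ppan on chromosome 9. Eif4ebp2, an inhibitor of initiation, fell by 0.51, while its relative Eif4ebp1 rose by 1.30. Of 23 genes for cytosolic tRNA synthetases and their scaffold 20 rose, with a median of 1.01, led by Eef1e1 (2.45) and Aimp2 (1.66), both of the scaffold. Of 17 mitochondrial synthetases 6 rose and 2 fell (1 fell without the pairing or either 0 h library), with Yars2 (1.48) among the rises. RNA polymerase III, which makes tRNA, changed in a few members, 21.1% higher and 15.8% lower, beside 23.3% and 35.5% of all genes. Of its 19 subunits and factors 4 rose and 3 fell, 7 rose under median-of-ratios scaling and 1 fell without the pairing or 0 h replicate 2. Polr3d went from 7.15 and 7.12 FPKM to 59.05 and 41.03 FPKM, and Polr3e rose by 1.83. Polr3gl, an alternative to the subunit Polr3g, fell by 1.19, and Polr3g was not called (0.22). Eif4ebp2 was not called without the pairing, 0 h replicate 1 or 4 h replicate 1, nor under median-of-ratios scaling. Eif4ebp2 had a change of -0.19 without 0 h replicate 1. Eif4ebp2 had a change of -0.84 without 0 h replicate 2.

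Protein folding genes rose in 3 compartments. In the cytosol 20 of 24 chaperones rose and 2 fell, and the falls were 1 without 4 h replicate 1 and were lost without the pairing, without either 0 h library and under median-of-ratios scaling. Hsp90ab1, the constitutive HSP90, had 81.8 and 119 FPKM at 0 h and 443 and 445 FPKM at 4 h (2.16 ± 0.22 SE, adjusted p = 0.000157), and the subunits of the CCT folding ring rose, with Cct3 (2.00) the most. Dnajb1, a heat shock gene, fell by 0.44, from 89.1 and 80.6 FPKM to 65.7 and 59.1 FPKM. In mitochondria 24 of 34 chaperones and import proteins rose and 1 fell, with Timm8a1 (2.85), Timm9 (2.64) and Phb (2.60) the most. Hspd1 and Hspe1, the mitochondrial chaperonin and its lid, rose by 2.55 and 2.35. They start from a shared region on chromosome 1 on opposite strands (55077835 to 55088243 and 55088132 to 55091307), and since the strand setting of the counting is not stated, reads in their overlap cannot be assigned. In the endoplasmic reticulum 20 of 27 genes rose and 2 fell, or 10 rose without the pairing and 13 without 0 h replicate 2. The 2 falls were lost without the pairing, without either 0 h library, without 4 h replicate 1 and under median-of-ratios scaling. Xbp1, the factor that expands the secretory pathway, had 211 and 134 FPKM at 0 h and 1250.2 and 1038 FPKM at 4 h and rose by 2.75 ± 0.32 SE (adjusted p = 0.000273). Hyou1, a chaperone of the reticulum, rose by 1.65. Dnajb1 was not called without the pairing, 0 h replicate 1, 0 h replicate 2 or 4 h replicate 1, nor under median-of-ratios scaling. Dnajb1 had a change of -0.27 under median-of-ratios scaling.

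Genes of the mitochondrial ribosome and of respiration rose less, and unevenly between pairs. Of 74 mitochondrial ribosomal protein genes 35 rose and 3 fell, with a median of 0.40, and 17 rose without the pairing and 18 without 0 h replicate 1. The falls were 1 without 0 h replicate 1 and were lost without 0 h replicate 2. Mrps18b went from 17.5 and 9.56 FPKM to 64.8 and 45.2 FPKM (1.98). Of 75 genes of oxidative phosphorylation 18 rose and 1 fell, a share near that of all genes for the rises. Their median was 0.12, with 0.33 in the pair of replicate 1 and -0.09 in that of replicate 2. The count that rose was 5 without the pairing, 5 without 0 h replicate 1, 11 without 0 h replicate 2 and 33 without 4 h replicate 2, and 6 fell without 4 h replicate 1. Uqcrq, of complex III, rose by 1.19 and Ndufa12, of complex I, by 1.11. Uqcrq had a change of 0.78 without 4 h replicate 1. Ndufa12 had a change of 0.70 without 4 h replicate 1.

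Genes that supply amino acids and one-carbon units rose. Of 17 genes of the amino acid response and serine synthesis 12 rose and 2 fell, with a median of 1.67. Shmt1 and Shmt2, which draw one-carbon units from serine in the cytosol and in mitochondria, had 3.39 and 1.71 FPKM at 0 h and 33.4 and 18.4 FPKM at 4 h (2.91) and 13.6 and 12.7 FPKM at 0 h and 76.2 and 68.9 FPKM at 4 h (2.38 ± 0.14 SE, adjusted p = 2.53e-05). Aldh18a1, which starts proline synthesis, rose by 2.24, and Atf4, the factor of this response, by 1.41. Trib3 and Ddit4, also known as targets of the response, fell by 1.14 and 0.87. The sequence TGATGNAA, bound by ATF4 with its partners, occurred on either strand in the window of 3 of the 17 genes (17.6%) and of 2.1% of all tested genes with a promoter sequence. Shown in the same way are the 250 bases before the start of Asns, which makes asparagine (2.23), and Chac1, which degrades glutathione (1.80). Capitals mark the match, which in Chac1 lies on the other strand. Trib3 was not called without the pairing. Ddit4 was not called without the pairing or 0 h replicate 1.
Asns, chr6:7693210-7693459 (- strand): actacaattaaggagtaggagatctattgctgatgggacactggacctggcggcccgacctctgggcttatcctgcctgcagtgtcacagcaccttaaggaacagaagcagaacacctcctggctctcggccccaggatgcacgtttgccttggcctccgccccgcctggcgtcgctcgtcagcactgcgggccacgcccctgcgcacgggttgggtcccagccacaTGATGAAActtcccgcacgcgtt
Chac1, chr2:119350992-119351241 (+ strand): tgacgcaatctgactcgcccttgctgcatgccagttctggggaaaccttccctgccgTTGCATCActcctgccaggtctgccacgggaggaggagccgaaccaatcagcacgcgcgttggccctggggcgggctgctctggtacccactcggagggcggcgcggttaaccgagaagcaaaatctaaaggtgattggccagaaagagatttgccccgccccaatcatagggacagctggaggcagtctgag

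Transporters followed both directions. Of 14 amino acid transporters 7 rose and 4 fell (2 fell without 0 h replicate 1). Slc7a5, the main transporter of leucine, had 15.03 and 17.9 FPKM at 0 h and 84.3 and 104 FPKM at 4 h (2.44 ± 0.15 SE, adjusted p = 2.93e-05), and Slc1a5, a glutamine transporter, rose by 2.11. Slc43a2, another transporter of large neutral amino acids, fell from 17.97 and 12.1 FPKM to 1.5 and 2.22 FPKM (-2.48 ± 0.24 SE, adjusted p = 0.000138), so that the values of the times did not overlap in either gene.

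Of 16 genes of glycolysis and glucose entry 10 rose and 2 fell, with 2 rising without the pairing, 4 without 0 h replicate 1 and 6 without 0 h replicate 2. Hk2, the inducible hexokinase, had 7.7 and 21.5 FPKM at 0 h and 135 and 154 FPKM at 4 h and rose by 3.37 ± 0.34 SE (adjusted p = 0.000163), while the constitutive Hk1 was not called. Slc16a1, a lactate transporter, rose by 2.19. Of the lactate dehydrogenase subunits Ldha rose by 1.07 and Ldhb fell by 0.77. In the citrate cycle 11 of 23 genes rose and 6 fell, or 7 and 3 without the pairing, 4 and 2 without 0 h replicate 1, and 6 and 3 without 0 h replicate 2, against 13 and 3 under median-of-ratios scaling. Pcx, which refills the cycle from pyruvate, rose by 1.66. Idh3a, the catalytic subunit of the NAD-dependent isocitrate dehydrogenase, rose by 0.97, and the NADP-dependent Idh1 and Idh2 fell by 0.91 and 0.72. Ldha was not called without the pairing or 0 h replicate 1. Ldhb was not called without the pairing. Idh2 was not called without 0 h replicate 1.

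Genes of nucleotide synthesis went both ways. In purine synthesis 11 of 14 genes rose, with Gart (1.77), Aprt (1.68) and Adsl (1.36) the most. In pyrimidine synthesis 7 of 15 rose and 6 fell, with a median of -0.03, and 0.12 under median-of-ratios scaling. Cad, the enzyme of the first steps, had 8.98 and 6.19 FPKM at 0 h and 44.7 and 36.4 FPKM at 4 h (2.29 ± 0.13 SE, adjusted p = 2.40e-05). Ctps, which makes CTP and is needed for lymphocyte division, had 11.9 and 6.39 FPKM at 0 h and 52.6 and 40.7 FPKM at 4 h (2.27), and its paralogue Ctps2 had 25.8 and 22.3 FPKM at 0 h and 4.16 and 3.76 FPKM at 4 h (-2.33), so that their order of levels turned between the times. Among the 6 that fell were Rrm2 (-1.38), Tyms (-1.38), Rrm1 (-0.86) and Tk1 (-0.52), which make deoxynucleotides and were chosen after their values were seen. Tk1 was not called without the pairing, 0 h replicate 1 or 0 h replicate 2, nor under median-of-ratios scaling.

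Of 11 genes of polyamine synthesis 7 rose and 1 fell (4 rose without the pairing). Srm, spermidine synthase, had 11.2 and 4.09 FPKM at 0 h and 212 and 109 FPKM at 4 h and rose by 4.28 ± 0.14 SE (adjusted p = 8.40e-06). Odc1, the first enzyme of the route, had 74.5 and 20.3 FPKM at 0 h and 258 and 114 FPKM at 4 h (2.11), with replicate 1 the higher at both times. Amd1 and Amd2 are near-identical copies and their rises of 1.01 and 1.17 cannot be separated with certainty. Among lipid genes, those of cholesterol synthesis fell less often than all genes (4.8% beside 35.5%), and 28.6% rose beside 23.3%. Fatty acid genes rose and fell in larger shares than all genes. Of 21 cholesterol genes 6 rose and 1 fell, with a median of 0.32. None was called higher by limma without the pairing (1 at an unadjusted p below 0.05), 2 rose without 0 h replicate 1, 10 without 4 h replicate 1 and 9 under median-of-ratios scaling. Sqle rose by 0.92. Of 12 fatty acid genes 4 rose and 6 fell, or 2 fell without the pairing and 1 without 0 h replicate 1, and under median-of-ratios scaling 5 rose and 4 fell. Fasn, fatty acid synthase, had 21.8 and 16.7 FPKM at 0 h and 87.6 and 88.2 FPKM at 4 h (2.15), while Elovl5, which lengthens unsaturated fatty acids, fell by 1.35 and the desaturase Scd2 by 0.98. Odc1 and Sqle were not called without the pairing. Scd2 was not called without the pairing or 0 h replicate 1.

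Genes of the resting state fell. Of 26 genes of quiescence and homing tested 22 fell, 18 of them by at least 2-fold, with a median of -1.73, and Slfn2 (0.09), Satb1 (0.03), Btg1 (-0.11) and Bach2 (-0.41) were not called. Klf2, the factor that maintains quiescence and drives S1pr1, had 112 and 238 FPKM at 0 h and 13.2 and 20.4 FPKM at 4 h, a fall of 3.24 ± 0.21 SE (adjusted p = 3.29e-05). Tsc22d3 (GILZ), a repressor of AP-1 and NF-kB, had 58.2 and 87.7 FPKM at 0 h and 3.52 and 4.35 FPKM at 4 h and fell by 3.88 ± 0.17 SE (adjusted p = 1.84e-05). Pik3ip1, an inhibitor of phosphoinositide 3-kinase, went from 93.1 and 52.9 FPKM to 4.37 and 4.56 FPKM, and Rasa3, an inhibitor of Ras and Rap proteins, from 216 and 185 FPKM to 16.1 and 20.6 FPKM. In all 4 of these the times were far apart. Tcf7, a factor of naive and memory cells, fell by 2.76 and Lef1, its relative, by 1.66. Itgb7 and Itga4, the chains of the gut-homing integrin, had 117 and 114 FPKM at 0 h and 15.6 and 10.6 FPKM at 4 h (-3.08) and 26.7 and 20.9 FPKM at 0 h and 2.95 and 4.46 FPKM at 4 h (-2.41). The forkhead factors Foxo1 and Foxo3, which hold T cells at rest, fell by 0.88 and 1.23. The forkhead sequence TGTTTAC, searched on both strands, was in the window of 2 of 22 of these genes with a promoter sequence (9.1%), Txnip, which fell, and Btg1, which was not called. It was in the window of 1 of 22 growth restraint genes (4.5%) and of 2.4% of all. Tcf7 was not called without the pairing. Foxo1 was not called without the pairing or 0 h replicate 1.

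Growth inhibitors fell in most members. Of 26 genes of growth restraint 17 fell and 2 rose, with a median of -0.84, and with 1 rising without the pairing or without 0 h replicate 1, and 4 without 4 h replicate 1 or under median-of-ratios scaling. Ccng2, an atypical cyclin that halts the cycle, had 82.9 and 93.1 FPKM at 0 h and 2.69 and 14.3 FPKM at 4 h (-3.56 ± 0.39 SE, adjusted p = 0.000211), with 4 h replicate 2 above 4 h replicate 1. Cdkn1b (p27), the inhibitor of cyclin-dependent kinases, had 90.95 and 129 FPKM at 0 h and 6.07 and 19.2 FPKM at 4 h (-3.19 ± 0.22 SE). Trp53inp1, a target of p53, had 219.6 and 227 FPKM at 0 h and 20.2 and 27.1 FPKM at 4 h (-3.20). Sesn1 fell by 2.05. Per2, of the circadian clock, rose by 1.64 and Cdkn1a (p21) by 0.84. Of 8 Gimap genes, which encode GTPases of lymphocyte survival and resemble each other, 4 fell and 1 rose, or 2 fell without the pairing and 1 without 0 h replicate 2. Without 0 h replicate 1 limma called none lower (3 at an unadjusted p below 0.05). Gimap4 went from 847 and 836 FPKM to 312 and 344 FPKM and Gimap5 from 52.6 and 42.4 FPKM to 102 and 87.4 FPKM. Cdkn1a was not called without the pairing or 0 h replicate 1. Gimap4 was not called without 0 h replicate 1.

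Autophagy and lysosome genes fell in 25 of 42 and rose in 3, or 13 fell without the pairing and 13 without 0 h replicate 1. The protease Ctsl fell by 2.35 and Atg14, of the kinase complex that starts autophagy, by 2.01. Ulk2, a kinase that starts autophagy, fell by 1.15, and Ctsz, another protease, rose by 1.5. The macrophage markers Fcgr3, Lgmn and Ctss fell as well, by 1.28, 1.43 and 0.45, and the part of such cells in the lysosomal genes was not tested. Of 29 mRNA decay factors 15 fell and 2 rose, or 9 fell without the pairing. The rises were lost without the pairing or either 0 h library and were 4 without 4 h replicate 1 or under median-of-ratios scaling, where 13 fell. Tnrc6b, a scaffold of microRNA silencing, fell by 2.00, Zfp36l2, which marks mRNAs for decay, by 1.87, and Btg2, which recruits deadenylases, from 179.7 and 226 FPKM to 40.6 and 87.8 FPKM. Ctsl and Fcgr3 were not called without the pairing. Ctss was not called without the pairing, 0 h replicate 1 or 0 h replicate 2, nor under median-of-ratios scaling. Ctsl had a change of -1.57 without 4 h replicate 1. Fcgr3 had a change of -0.81 without 0 h replicate 1. Ctss had a change of -0.29 under median-of-ratios scaling.

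Genes of cell division fell almost without exception. Of 46 mitosis genes 45 fell, 40 of them by at least 2-fold, with a median of -1.34, and Bub3 (-0.31) was not called. Cdc25b, the phosphatase that starts mitosis, had 135 and 119 FPKM at 0 h and 14.2 and 23.9 FPKM at 4 h and fell by 2.71 ± 0.21 SE (adjusted p = 6.05e-05). Nusap1, a spindle protein, fell by 2.19. Ccnb2, a mitotic cyclin, had 66 and 90.1 FPKM at 0 h and 13.9 and 20.8 FPKM at 4 h (-2.11 ± 0.17 SE), with both 4 h libraries below both 0 h libraries. The core of the CHR element, TTTGAA, through which cell cycle repressor complexes act, was found on either strand in the window of 30 of 39 mitosis genes with a promoter sequence (76.9%) and of 11.8% of all. Its share was 14.5% in genes called lower and 10.8% in genes called higher. The window of Ccnb2 holds 2 matches, and the one after the start lies outside the bases shown. Shown are the 250 bases before the start of Ccnb2 and of Ncapd2, a condensin subunit that fell by 1.80. They were chosen by the same rule, with capitals on the match before the start.
Ccnb2, chr9:70421555-70421804 (- strand): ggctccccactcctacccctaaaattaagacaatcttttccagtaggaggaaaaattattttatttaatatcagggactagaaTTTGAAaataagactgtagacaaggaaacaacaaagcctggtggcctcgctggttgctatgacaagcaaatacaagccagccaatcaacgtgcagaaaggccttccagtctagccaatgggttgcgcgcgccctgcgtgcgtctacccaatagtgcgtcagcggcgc
Ncapd2, chr6:125191587-125191836 (- strand): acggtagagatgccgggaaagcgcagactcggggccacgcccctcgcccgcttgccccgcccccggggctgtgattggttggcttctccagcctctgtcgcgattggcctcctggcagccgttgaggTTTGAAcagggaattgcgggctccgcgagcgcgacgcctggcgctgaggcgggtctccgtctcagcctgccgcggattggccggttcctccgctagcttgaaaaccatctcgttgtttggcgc

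In the S phase list 35 of 42 genes fell and 1 rose, with a median of -0.79, a smaller median fall than that of mitosis. E2f2, an activator of S phase genes, had 161 and 156 FPKM at 0 h and 23.2 and 21.4 FPKM at 4 h and fell by 2.78 ± 0.14 SE (adjusted p = 1.94e-05), and its relative E2f1 was not called (-0.39). Pole2, of DNA polymerase epsilon, fell by 1.85 and Rpa1, which binds single-stranded DNA, by 1.37. Pold2, of DNA polymerase delta, rose by 1.05. The E2F sequence TTTNGCGC was in the window of 10 of 34 S phase genes (29.4%) and of 2.8% of all, on either strand. Of 40 DNA repair genes 26 fell and 5 rose, or 17 fell without 0 h replicate 1 and 3 rose without the pairing. Brca1, of homologous recombination, fell by 2.03 and the checkpoint kinase Chek2 by 1.60. Both subunits of the Ku complex of end joining rose, Xrcc5 by 0.85 and Xrcc6 by 0.92, as did Ung, which removes uracil from DNA (0.95). Pold2 and Ung were not called without the pairing. Pold2 had a change of 0.69 without 4 h replicate 1.

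Histone genes fell in 54 of 67, with a median of -1.27 that was -0.59 in the pair of replicate 1 and -1.95 in that of replicate 2. Their summed FPKM was 36559 and 29570.2 at 0 h and 23452 and 8655 at 4 h, so that 4 h replicate 2 stood lowest. Without the pairing 14 fell, without 0 h replicate 2 there were 16 and without 4 h replicate 2 there were 34. H2afv, a replication-independent variant, had 26.5 and 26.6 FPKM at 0 h and 2.54 and 2.67 FPKM at 4 h (-2.94 ± 0.14 SE, adjusted p = 1.85e-05) with close replicates. Clustered histone genes are near-identical copies, and their single values are uncertain.

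Chromatin and zinc finger genes fell more often than they rose, as did all genes (35.5% lower and 23.3% higher). The shares lower and higher were 51% and 9.8% for chromatin genes, and 50.2% and 10.7% for Zfp genes. Of 51 chromatin genes 26 fell and 5 rose, or 9 fell without the pairing, 16 fell and 3 rose without 0 h replicate 1, 8 rose without 4 h replicate 1 and 9 rose under median-of-ratios scaling. The acetyltransferase paralogues Kat2a and Kat2b went opposite ways, Kat2a from 10.4 and 8.2 FPKM to 33.3 and 27.6 FPKM (1.61) and Kat2b from 63.05 and 62.6 FPKM to 16.1 and 20.5 FPKM (-1.74). Kdm6b, a histone demethylase, rose by 1.74. Of 225 Zfp genes, most of them zinc finger factors, 113 fell and 24 rose. These counts were 43 and 7 without the pairing, 63 and 8 without 0 h replicate 1, and 70 and 12 without 0 h replicate 2. Zfp260 fell by 2.15, and Zfp593 rose by 2.14. Among 32 Mediator subunits 3 rose and 8 fell, both smaller shares than among all genes, with a median of -0.12, and 0.04 under median-of-ratios scaling, where 9 rose and 4 fell. Without the pairing 2 fell, as without either 0 h library, and 6 rose without 4 h replicate 2 and 1 without 0 h replicate 2. The kinase paralogues of Mediator were again opposite, with Cdk8 at 0.79 and Cdk19 at -2.37, from 24.2 and 20.2 FPKM to 2.71 and 4.41 FPKM. Of 60 genes of RNA polymerase II and the general factors 15 rose and 12 fell, and 7 rose without 0 h replicate 1 and 20 under median-of-ratios scaling. The falls were 4 without the pairing, 4 without 0 h replicate 1, 5 without 0 h replicate 2 and 7 under median-of-ratios scaling. The shares of the 60 genes were 25% higher, near the 23.3% of all genes, and 20% lower, below 35.5%. Polr2a, the largest subunit, had 13.8 and 13.4 FPKM at 0 h and 6.8 and 13.9 FPKM at 4 h and was not called (-0.44 ± 0.23 SE, adjusted p = 0.135). Cdk8 was not called without 0 h replicate 2.

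Genes of RNA and protein handling rose more often than they fell. The shares higher and lower were 40.4% and 3.8% for the nuclear pore and transport, and 46.7% and 2.2% for the proteasome. Of 72 splicing genes 28 rose (38.9%) and 10 fell (13.9%), beside 23.3% and 35.5% of all genes. Rises were 17 without the pairing, 14 without 0 h replicate 1 and 15 without 0 h replicate 2, where 4 fell in each case, and the falls were 6 without 4 h replicate 1 and 5 under median-of-ratios scaling. Lsm7, of the U6 particle, rose by 1.69 and Snrpd2, a core snRNP protein, by 1.67. Of 52 genes of the nuclear pore and of transport receptors 21 rose and 2 fell, with 13 rising without the pairing, 13 without 0 h replicate 1 and 12 without 0 h replicate 2, and 6 falling without 4 h replicate 2. The importins Ipo4 and Ipo5 rose by 2.49 and 1.82, and Xpot, which exports tRNA, by 1.65. Of 45 proteasome genes 21 rose and 1 fell, with 8 rising without the pairing and 5 without 0 h replicate 1, and 3 falling without 4 h replicate 1. All 4 assembly chaperones listed rose, with Psmg4 (1.30), Psmg1 (1.10), Psmg2 (1.05) and Psmg3 (0.95), and the immunoproteasome subunit Psmb9 fell by 0.73. Psmg4 and Psmg2 were not called without the pairing. Psmg1 and Psmg3 were not called without 0 h replicate 1. Psmb9 was not called without 0 h replicate 2. Psmg1 had a change of 0.64 without 4 h replicate 1.

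Interferon response genes did not move as a group. Of 43 tested 6 rose and 12 fell, with a median of -0.18 near that of all genes and -0.01 under median-of-ratios scaling. The rises were 2 without the pairing and 10 without 4 h replicate 2, and the falls were 6 without the pairing, 5 without 0 h replicate 2 and 20 without 4 h replicate 1. Samhd1, which depletes nucleotides and limits viruses, had 92.6 and 107 FPKM at 0 h and 18.8 and 27.4 FPKM at 4 h (-2.08 ± 0.15 SE, adjusted p = 4.34e-05). Ifit2 fell by 1.73 and Gbp2, a guanylate-binding protein, by 1.63, whereas Isg20, an exonuclease, rose by 1.90 and Gbp5 by 1.11. The core of the interferon-stimulated response element was in the window of 16 of 33 of these genes (48.5%) and of 3.1% of all, on either strand. Of 10 genes of MHC class I, H2-Q4 alone was called, lower by 0.37, and it resembles other class I genes closely, so its value is uncertain. H2-Q4 was not called without the pairing, 0 h replicate 1, 0 h replicate 2, 4 h replicate 1, 4 h replicate 2, 1 h replicate 1 or 1 h replicate 2, nor under median-of-ratios scaling or in a fit of the 4 libraries alone. H2-Q4 had a change of -0.21 under median-of-ratios scaling.

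Of 24 survival and death genes 7 rose and 7 fell, or 3 fell without the pairing, 2 fell without 0 h replicate 1 and 4 rose without 0 h replicate 2. Bcl2l1, which encodes the survival protein Bcl-xL, had 15.01 and 14.4 FPKM at 0 h and 136 and 90.8 FPKM at 4 h and rose by 2.84 ± 0.27 SE (adjusted p = 0.000125). Bbc3 (PUMA), which promotes death, had 31.6 and 43.7 FPKM at 0 h and 6.32 and 6.67 FPKM at 4 h and fell by 2.35 ± 0.20 SE (adjusted p = 9.27e-05). Bid, also a death gene, rose from 2.81 and 1.75 FPKM to 17.2 and 13.6 FPKM, so members of the same function moved both ways. Among the 24 genes 29.2% rose and 29.2% fell, beside 23.3% and 35.5% of all genes. Bcl2a1b and Bcl2a1d are near-identical, and their rises of 1.70 and 1.91 are uncertain. Of 19 integrins and adhesion genes 6 rose (31.6%) and 8 fell (42.1%), and 1 rose without the pairing. Besides the integrin chains above, Itga6 fell by 1.86 and Itgav rose by 1.27. Of 8 markers of regulatory T cells 4 rose, Il2ra and Tnfrsf18 among them, and 2 fell. The falls were lost without the pairing, were 1 without either 0 h library or under median-of-ratios scaling, and were 4 without 4 h replicate 2. Of 6 markers of follicular helper cells 3 rose and 2 fell. The rises were lost without the pairing and were 1 without 0 h replicate 1, and 1 fell without the pairing or either 0 h library. Il21 rose by 2.15, while Bcl6, their factor, fell by 1.68. Il21 was not called without the pairing or 0 h replicate 1. Il21 had a change of 1.23 without 0 h replicate 1.

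**Figure D4:**
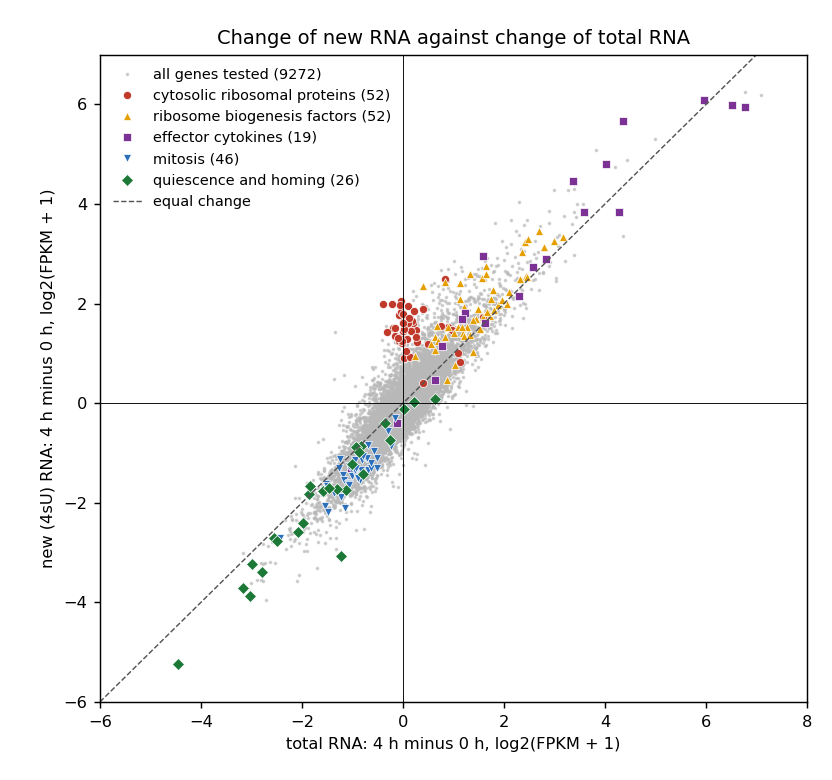
Change from 0 h to 4 h in total RNA (x axis) and in new RNA (y axis), in log2(FPKM + 1), with 1 point per gene and 5 gene lists in colour. Cytosolic ribosomal proteins (52 genes) stand above the diagonal, at a median of 1.51 in new RNA and 0.07 in total RNA, while effector cytokines (19 genes) lie high on both axes and mitosis genes (46) low on both.

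Total RNA of the same times, in 2 libraries each that share no library with new RNA, was used to ask where the 2 kinds of RNA differed. The difference of changes was tested with limma as an interaction over 9270 genes. It was called higher in new RNA for 149 genes (1.61%) and lower for 25 (0.27%), with 1355 genes at an unadjusted p below 0.05. These calls rest on few libraries. With limma, none were left without the pairing (540 at an unadjusted p below 0.05), or without total RNA 4 h replicate 1 (900) or replicate 2 (1216). There were 8 when 4sU 0 h replicate 1 was left out, 2 without its replicate 2, 18 without replicate 1 of 4sU at 4 h, 29 without total RNA 0 h replicate 2 and 316 without total RNA 0 h replicate 1. Of the 149, 37 were ribosomal protein genes of 52 tested. Rplp1 went from 71.5 and 77.1 FPKM to 447 and 200.4 FPKM in new RNA, and from 1066 and 1221 FPKM to 942 and 799 FPKM in total RNA, a difference of 2.39 ± 0.41 SE (adjusted p = 0.0188). Rplp2, its partner in the stalk, had 214 and 131 FPKM and 226 and 118 FPKM in total RNA, where replicates differed more than times, and 19.4 and 11.9 FPKM at 0 h and 93.2 and 47.1 FPKM at 4 h in new RNA (2.09 ± 0.22 SE, adjusted p = 0.00617). Of the 15 elongation factors and related mRNAs 9 were called, with a median change of 1.09 in new RNA and 0.00 in total RNA.

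Other groups changed in total RNA too. The median change in total RNA was 2.57 for effector cytokines, 1.46 for ribosome biogenesis, 1.5 for immediate early factors, -1.39 for quiescence and homing and -0.94 for mitosis, beside 2.89, 1.88, 1.78, -1.73 and -1.34 in new RNA. Npm1 had 188 and 276 FPKM at 0 h and 309 and 288 FPKM at 4 h in total RNA, where the times were close, and a difference of 1.96 ± 0.27 SE (adjusted p = 0.0134). Cholesterol synthesis had a median of 0.32 in new RNA and -0.56 in total RNA. Among genes lower in new RNA, Itgb7 had a difference of -1.85 ± 0.40 SE (adjusted p = 0.0415), with 206 and 78.6 FPKM at 0 h and 70.8 and 40.7 FPKM at 4 h in total RNA. Anxa1, a regulator of inflammation, had 34.9 and 18.1 FPKM at 0 h and 7.6 and 1.43 FPKM at 4 h in new RNA and 47.4 and 15.6 FPKM and 26.1 and 9.04 FPKM in total RNA (-1.74 ± 0.28 SE, adjusted p = 0.0137).

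The direction of change varied with the length of the gene. Genes were split into 5 classes by genomic span, from first to last annotated base. In the shortest class (312 to 8330 bases) 32.4% of genes rose and 28.2% fell, and in the longest (61123 to 1503514 bases) 13.9% rose and 43.8% fell. The classes between had 27.5%, 23.4% and 18.9% higher and 32.4%, 35.4% and 37.8% lower. The median change went from 0.04 to -0.32 in new RNA and from -0.01 to -0.21 in total RNA. The split by summed exon length ran the same way, from 32.7% to 13.9% higher and from 28.7% to 43.7% lower. Genes of low FPKM fell more often as well, with 41.8% lower and 16.3% higher at a mean of 1.0 to 4.94 FPKM, and 31.3% and 32.6% at 30.9 to 2524 FPKM. Span, exon length and level were split separately and not related to each other, and these shares are a description with no test.

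**Figure D5:**
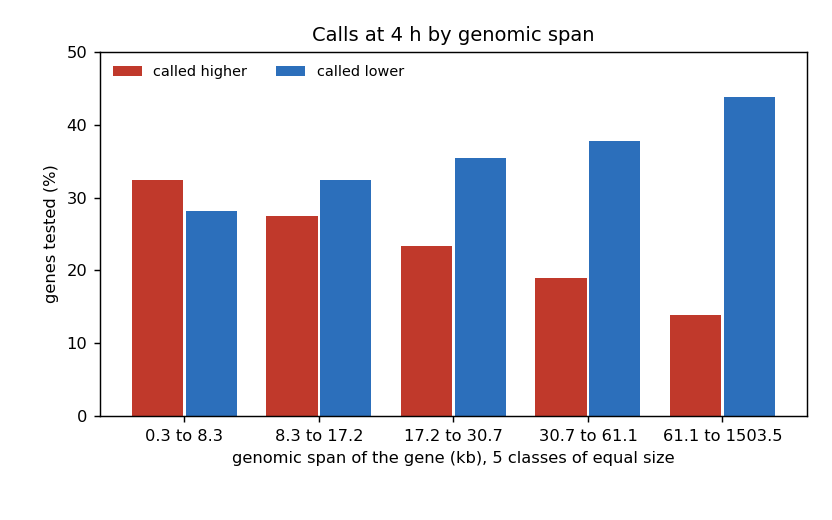
Percent of genes called higher (red) and lower (blue) at 4 h in 5 classes of genomic span, from the shortest to the longest genes. The share that rose goes from 32.4% to 13.9% and the share that fell from 28.2% to 43.8%.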

How the data were processed

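The authors deposited FPKM values with 2 decimals for 9420 genes in 24 libraries, which per the submitters' processing notes rest on counting with featureCounts (Subread 1.4.6-p3) on GRCm38. Not given in the sources used here are the aligner, annotation, gene lengths, strand setting and gene selection. Depth could not be read from the steps of low values. Symbols came from GENCODE M21 (9412 identifiers matched), and promoters from RefSeq on GRCm38.p6 (7444 of 9272 genes).

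Changes in log2(FPKM + 1) were fitted with limma 3.58.1 (R 4.3.3, variance trend) on the 8 libraries of 4sU RNA with 1 h of label, with time and replicate number as terms and Benjamini-Hochberg adjustment. The comparison with total RNA was an interaction over 14 libraries. Calls were made at an adjusted p below 0.05, and the pseudocount shrinks changes of low genes. Deviations from group means of libraries with the same replicate number correlated in all 28 pairs of replicated groups (0.307 to 0.790). The pairing uses the replicate numbers of the labels and rests on this correlation, as the labels do not say what a number stands for. Scripts were tested on simulated data.

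Genes named are the 12 largest changes in each direction with no overlap, the 3 most changed members of each list and the largest against its median, a panel of 25 genes, and the 6 largest differences from total RNA in each direction. Some genes that these rules name are not reported here. Other members given were chosen after their values were seen. Members and lists were chosen with earlier results of these data known.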

Additional observations from a re-analysis of the deposited data

Results flagged for a closer look

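For 12 genes the change from 0 h to 4 h differed between new and total RNA by a test of the difference itself (limma interaction, in log2(FPKM + 1), 4sU minus total RNA), and they are the 6 largest in each direction, most of which follow. New RNA gained more in Rplp1 (2.39), Rpl36 (2.21), Rplp2 (2.09), Rpsa (2.03) and Npm1 (1.96), which encode 4 ribosomal proteins and nucleophosmin, and in Lama5 (1.92), a laminin chain. Among those in which it lost more were Itgb7 (-1.85), Anxa1 (-1.74), H2afv (-1.62), Selenop (-1.61) and Cd9 (-1.58), a tetraspanin. In new RNA Lama5 had 2.07 and 2.75 FPKM at 0 h and 18.8 and 22.7 FPKM at 4 h, and in total RNA it had 3.85 and 3.01 FPKM at 0 h and 5.77 and 7.14 FPKM at 4 h. Selenop had 65.4 and 56.1 FPKM at 0 h and 4.18 and 6.4 FPKM at 4 h in new RNA and 109 and 63.4 FPKM at 0 h and 26.1 and 23.6 FPKM at 4 h in total RNA. No call of this comparison was left without the pairing.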

How the results depend on the processing

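The count of calls was 5448. Without the replicate block (the pairing of replicate numbers) it was 3099 (1338 higher, 1761 lower), all of them among the 5448 and with the same sign. Leaving out 1 library each gave 3306 to 5810 calls, and the other settings gave 4355 (mean of at least 5 FPKM) to 5525 (the 4 libraries alone). In the comparison with total RNA, 174 calls became 0 without the replicate block (limma, 540 genes at an unadjusted p below 0.05) and 0 to 316 when 1 library was left out, and other settings gave 152 to 170. Of 243 named genes, 42 lost their call under some setting, 36 of them without the replicate block, 22 without 4sU 0 h replicate 1 and 10 without replicate 2. None changed sign, and Fcer1g and Polr2a became called under some setting. Of 130 counts over gene lists, 64 moved by over 1.5 times without the replicate block. With 2 libraries at each time and an unknown depth, a gene that was not called may still have changed.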
